A study of Rattus norvegicus with 4 samples.

Results

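The genes described here are 10 nuclear genes that shape mitochondria or make their membranes permeable: Mfn1, Mfn2 and Opa1 (fusion), Dnm1l, Fis1 and Mff (fission), Vdac1, Vdac2 and Vdac3 (channels of the outer membrane) and Ppif (cyclophilin D). They were chosen by gene symbol, and all 10 were found among the 31038 rows of the count tables. Ribosome profiling, which counts the messenger RNA fragments that ribosomes protect from digestion, was run on cultured rat myocardial cells. The cells carry the label NRVM, usually neonatal rat ventricular myocytes, while the growth protocol names embryonic rat heart. The si3m group was treated with an siRNA against eIF3m, a subunit of the translation initiation complex eIF3, and the siNT group with a control siRNA, with 2 libraries in each group. All libraries came from lysates treated with cycloheximide, which stalls ribosomes. No RNA-seq was used here, so each value is the abundance of footprints and not a rate of translation per messenger RNA.

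Mitochondria form a network that is remodelled by GTPases. The mitofusins Mfn1 and Mfn2 join outer membranes and Opa1 joins inner membranes, while Dnm1l (Drp1) is recruited from the cytosol by receptors such as Mff and Fis1 and constricts the organelle. The VDAC proteins are pores through which metabolites cross the outer membrane, and cyclophilin D, in the matrix, promotes opening of the permeability transition pore, an event well known in reperfused heart muscle. The series title links eIF3m to nitrative damage in hearts that are reperfused after ischemia.

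Total counts were 8687598 and 6726969 in the si3m libraries and 3924434 and 3835750 in the siNT libraries, so depth differed with group. Eif3m had 137.5 and 190.6 CPM (counts as a share of the library, TMM-scaled) in si3m libraries, against 531.7 and 450.7 CPM in siNT libraries, a log2 fold change of -1.59 with an SE of 0.11 (edgeR adjusted p = 3.41e-08, or 0.0522 with robust quasi-likelihood). Of 18 cardiomyocyte markers, 8 had at most 6 counts in every library and Myl7, Nppa and Tnni3 were at 0 throughout. These 18 summed to 590 and 601 CPM of the library total in si3m libraries and to 994 and 956 in siNT libraries, or, without Atp2a2 (left out after its values were seen), to 121 and 140 in si3m and 136 and 142 in siNT. Of the 6 tested, Tnnt2 rose (log2 1.25) and Atp2a2, Pln and Ttn fell (log2 -0.77, -1.56 and -0.64). The 12 fibroblast markers summed to 16635 and 16361 CPM in si3m libraries and to 12570 and 12531 in siNT libraries. Of the 9 tested, 8 rose and Fn1 fell, beside 14.0% higher and 13.9% lower among all tested genes. Dcn, 1 of the 8, had 24 and 20 counts in si3m and 0 in both siNT libraries. It had enough counts for testing only through si3m, the group where it was high, so its rise carries no weight here. Lum, Pdgfra and Tcf21 had too few counts to be tested. The 6 smooth muscle markers summed to 3566 and 3572 CPM in si3m and 3239 and 3218 in siNT. Acta2 made up most of that sum and rose (log2 0.35), Tagln fell (log2 -0.23), and 4 did not pass. The 5 endothelial markers (3.45 and 3.87 in si3m, 3.06 and 5.74 in siNT) were near 0. The 5 macrophage markers were low (1.38 and 0.892 in si3m, 9.68 and 12.0 in siNT). Only Adgre1 of these 5 was tested, and it fell (log2 -4.69), with 4 and 0 counts in si3m and 24 and 34 in siNT. Adgre1 had enough counts for testing only through siNT, the group where it was high, so its fall carries no weight either. Although the label names cardiac myocytes, 12 of the 18 cardiomyocyte markers had too few counts to be tested, and whether the makeup of the cultures bears on the values below was not tested. In such bulk libraries, fewer cells of a type and fewer footprints per cell cannot be told apart.

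All 10 genes had enough counts to be tested. Footprints of Fis1, Vdac2 and Vdac1 rose in si3m cells, those of Ppif and Mff fell, and Vdac3, Mfn2, Dnm1l, Opa1 and Mfn1 did not pass the threshold (edgeR quasi-likelihood test, Benjamini-Hochberg adjusted p under 0.05 over all 12672 tested genes). Fis1 changed the most, about 2.04-fold. Among all tested genes 14.0% were called higher and 13.9% lower, together 27.8%, beside 3 higher and 2 lower of the 10. The median log2 fold change was 0.10 over the 10 genes and 0.02 over all tested genes. For 7 of the 10 genes no si3m value fell among the siNT values (5 with si3m above, 2 with si3m below), which also held for 63.9% of all tested genes (32.6% with si3m above, 31.3% below). TMM scaling centres the fold changes, so a gene rises or falls here in relation to the rest of the footprints. With total count scaling the split over all genes was 1428 higher and 2217 lower, beside 1771 and 1757. Of the 10, 2 were then higher and 2 lower, the call of Vdac1 being lost. In DESeq2 2 were higher and 1 lower, with Vdac1 and Mff lost. Without the low-count filter, or with libraries thinned to the smallest total, 3 were higher and 1 lower, with Mff lost. The calls of Fis1 and Vdac2 held under all 13 other settings, while the 2 falls became 1 without siNT replicate 2 or si3m replicate 1 and none without si3m replicate 2.

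**Figure D1:**
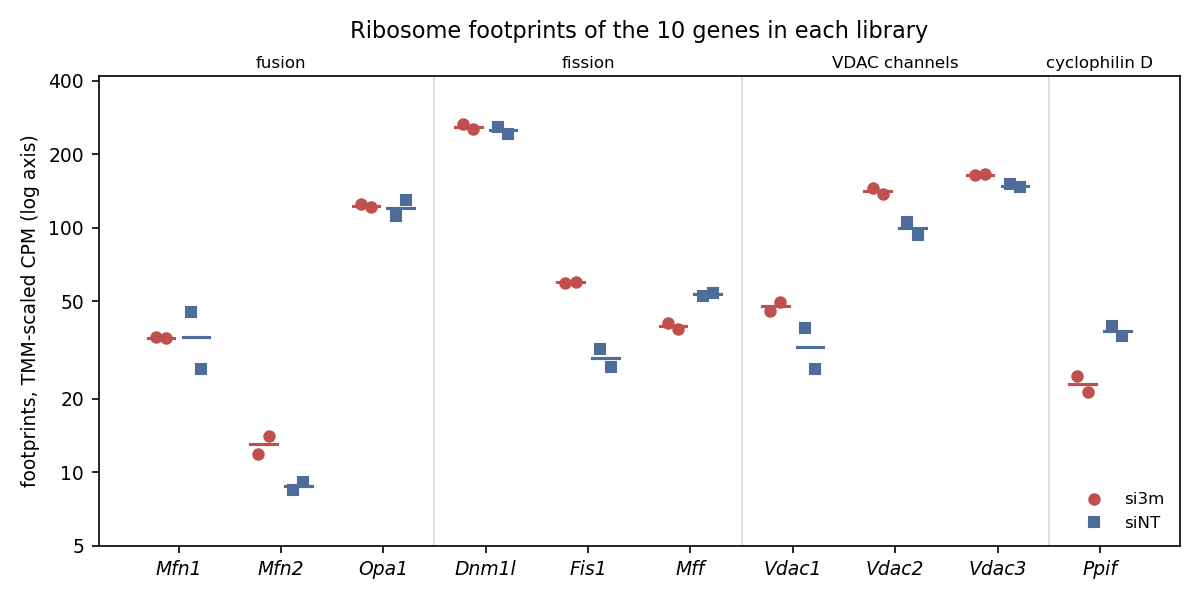
Footprints of each gene in each library (TMM-scaled CPM, log axis), si3m circles left and siNT squares right, with bars at the group means. The si3m points of Fis1 lie at 59.7 and 60.3 CPM above siNT points at 31.9 and 26.9, and those of Ppif and Mff lie below their siNT points. Heights of different genes cannot be compared, since counts are not divided by length.

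The sequences just upstream of the annotated starts are shown for the 5 genes whose footprints changed, to set the genomic context of the rising and falling genes side by side. Each is 150 bases long, ends 1 base before the start, is written 5′ to 3′ on the gene's own strand and comes from RefSeq (build GRCr8, whereas the count tables were made on rn6). Capitals mark matches, on either strand, to GGGCGG (bound by Sp1 factors), CCAAT or CCGGAAG (an ETS family element).
Fis1, upstream start (chr12:25360044-25360193, minus strand): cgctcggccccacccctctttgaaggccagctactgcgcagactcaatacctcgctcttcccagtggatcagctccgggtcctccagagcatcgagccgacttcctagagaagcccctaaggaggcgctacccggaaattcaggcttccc
Fis1, downstream start (chr12:25349333-25349482, minus strand): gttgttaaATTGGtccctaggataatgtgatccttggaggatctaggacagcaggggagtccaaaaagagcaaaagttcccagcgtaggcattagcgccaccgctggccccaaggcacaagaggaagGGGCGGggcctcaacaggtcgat
Vdac1 (chr10:37033059-37033208, plus strand): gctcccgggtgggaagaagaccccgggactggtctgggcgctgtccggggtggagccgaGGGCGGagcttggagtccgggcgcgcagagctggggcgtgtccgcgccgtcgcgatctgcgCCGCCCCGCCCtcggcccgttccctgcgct
Vdac2 (chr15:2525887-2526036, minus strand): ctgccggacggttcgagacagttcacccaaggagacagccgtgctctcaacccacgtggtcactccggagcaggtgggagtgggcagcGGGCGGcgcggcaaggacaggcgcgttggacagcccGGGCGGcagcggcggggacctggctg
Mff (chr9:91455781-91455930, plus strand): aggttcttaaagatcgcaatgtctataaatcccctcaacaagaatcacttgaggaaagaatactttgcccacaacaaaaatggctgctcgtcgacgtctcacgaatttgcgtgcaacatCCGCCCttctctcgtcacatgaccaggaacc
Ppif (chr16:1263851-1264000, plus strand): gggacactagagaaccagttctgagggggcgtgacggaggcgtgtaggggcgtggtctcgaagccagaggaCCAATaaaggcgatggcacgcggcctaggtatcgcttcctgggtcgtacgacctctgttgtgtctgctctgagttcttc
Vdac1 and Vdac2, which both rose, held 3 and 2 matches to GGGCGG, the last 2 of Vdac1 overlapping by 1 base, and Mff, which fell, held 1, as did the downstream window of Fis1. A CCAAT element stood in the downstream window of Fis1, which rose, and in that of Ppif, which fell, and the ETS element in none of these windows. Entries were found for 8 of the 10 genes, not for Mfn2 and Vdac3, and their 9 windows held GGGCGG in 6, CCAAT in 4 and CCGGAAG in 1, that of Mfn1. Over 33469 windows of the same length the shares were 26.0%, 23.5% and 5.83% in that order. These matches are a description of the letters only.

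Among the genes of fusion, none passed. Mfn1 had 35.7 and 35.3 CPM in si3m libraries, against 45.3 and 26.4 CPM in siNT libraries. Both si3m values lay between the siNT values, which spread widely. Its log2 fold change was -0.02 (95% interval -0.47 to 0.43, adjusted p = 0.965), and it became 0.43 without siNT replicate 1 and -0.35 without siNT replicate 2, neither passing. Mfn2, the mitofusin that also tethers mitochondria to the endoplasmic reticulum, had 11.9 and 14.1 CPM in si3m libraries, against 8.46 and 9.15 CPM in siNT libraries. The groups did not overlap, but with 101 and 91 counts in si3m and 34 and 36 in siNT the log2 fold change of 0.56 did not pass (95% interval -0.06 to 1.17, adjusted p = 0.170). Mfn2 had the fewest counts of the 10, and its interval holds both no change and a doubling, a log2 value of 1. Opa1 had 125.1 and 121.9 CPM in si3m libraries, against 112.0 and 129.8 CPM in siNT libraries, with the si3m values inside the siNT range. Its log2 fold change was 0.03 (95% interval -0.16 to 0.22, adjusted p = 0.837), turning to -0.05 with total count scaling and to -0.07 without siNT replicate 1.

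The genes of fission went separate ways. Dnm1l, the GTPase that constricts mitochondria, had 266.2 and 253.4 CPM in si3m libraries, against 259.9 and 243.4 CPM in siNT libraries. The groups overlapped, and the log2 fold change of 0.05 (95% interval -0.08 to 0.18, adjusted p = 0.613) turned to -0.03 with total count scaling. Fis1, a small tail-anchored protein of the outer membrane, had 59.7 and 60.3 CPM in si3m libraries, against 31.9 and 26.9 CPM in siNT libraries. Each si3m library stood well above each siNT library. Its footprints rose by a log2 fold change of 1.03 (SE 0.15, 95% interval 0.70 to 1.36, adjusted p = 1.28e-04), and 6.38% of all tested genes had a higher value. Leaving out 1 library at a time gave 0.92 to 1.16, each past the threshold.

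Mff, the tail-anchored receptor that recruits Dnm1l, had 40.7 and 38.7 CPM in si3m libraries, against 52.8 and 54.4 CPM in siNT libraries. Both si3m values lay below both siNT values, and the gene fell by 0.43 on the log2 scale (SE 0.14, 95% interval -0.74 to -0.12, adjusted p = 0.0363). The call was lost in DESeq2 (adjusted p = 0.0919), when the low-count filter was dropped (0.0582) and with libraries thinned to the smallest total (0.213, log2 -0.27). It was also lost without siNT replicate 2 (0.0853) and when either si3m library was left out (0.128 without si3m replicate 1, and 0.212 without si3m replicate 2). The 2 receptors moved in opposite directions. Within a library, the count of Fis1 over that of Mff was 1.47 and 1.56 in si3m, against 0.604 and 0.495 in siNT. Fis1 over Dnm1l was 0.224 and 0.238 in si3m, against 0.123 and 0.111 in siNT, and Mff over Dnm1l was 0.153 and 0.153 in si3m, against 0.203 and 0.223 in siNT. The groups did not overlap in any of these 3 ratios. All 3 are built from the counts of Fis1, Mff and Dnm1l, so they restate the fold changes above and are not separate evidence. Of single tested genes, 63.9% did not overlap between groups either. The difference between the receptors was not itself tested. Opa1 over Dnm1l, a fusion over a fission gene, was 0.470 and 0.481 in si3m, inside the siNT values of 0.431 and 0.533.

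**Figure D2:**
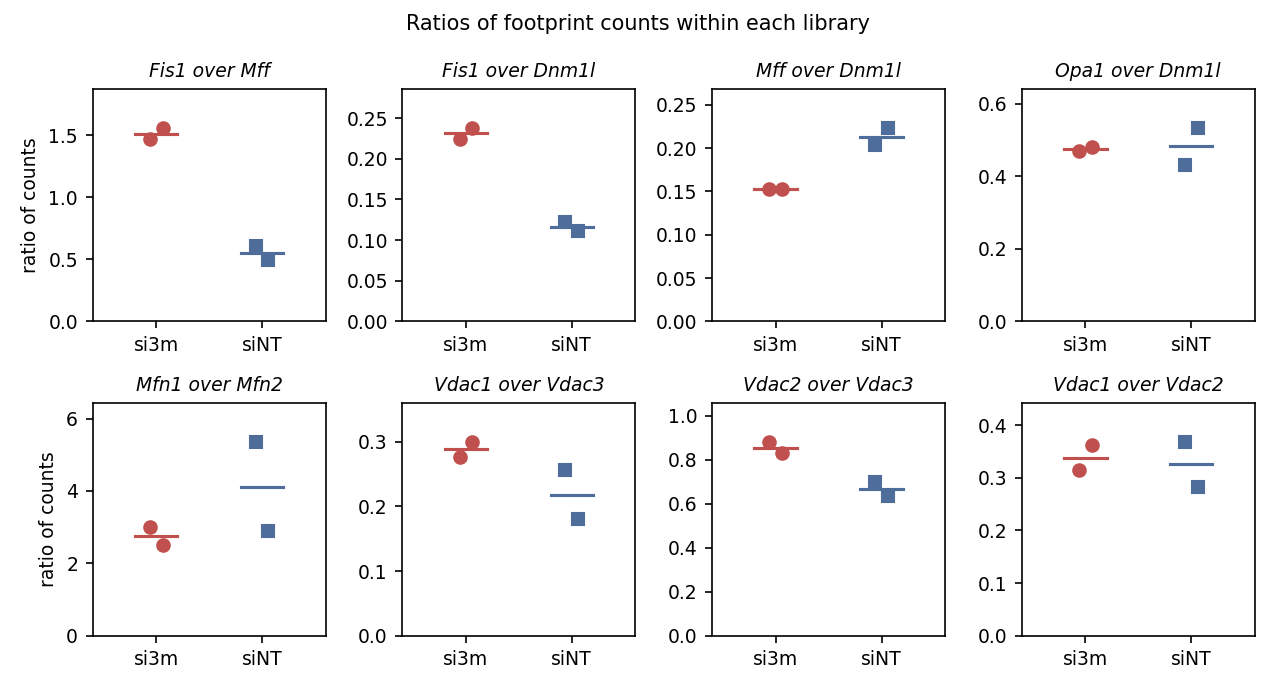
Ratios of the deposited counts of paired genes within each library (y axis, no unit), si3m left and siNT right, with bars at the means. Fis1 over Mff is 1.47 and 1.56 in si3m and 0.604 and 0.495 in siNT, whereas Opa1 over Dnm1l and Vdac1 over Vdac2 overlap. Heights are not corrected for gene length, so that they compare groups and not genes.

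The VDAC channels were higher or not past the threshold. Vdac1, the isoform most studied as a docking site for hexokinase, had 45.7 and 49.8 CPM in si3m libraries, against 38.8 and 26.4 CPM in siNT libraries. The groups did not overlap, yet the siNT values lay further apart than the gap between the groups. Its log2 fold change of 0.55 (SE 0.18, 95% interval 0.16 to 0.93) just passed (adjusted p = 0.0356). It was 0.30 without siNT replicate 2 (adjusted p = 0.242) and 0.86 without siNT replicate 1 (2.91e-04), and it also failed without si3m replicate 2 (0.135), with total count scaling (0.0707) and in DESeq2 (0.0821). Vdac2, known as the isoform that holds the apoptosis effector BAK at the outer membrane, had 145.1 and 137.7 CPM in si3m libraries, against 105.5 and 93.5 CPM in siNT libraries. All si3m values lay above all siNT values, and Vdac2 rose by 0.51 on the log2 scale (SE 0.090, 95% interval 0.31 to 0.70, adjusted p = 5.59e-04). Vdac3, the third isoform, had 164.7 and 166.1 CPM in si3m libraries, against 151.1 and 146.8 CPM in siNT libraries. Its replicates were close and did not overlap between groups, but the log2 difference of 0.15 did not pass (SE 0.073, 95% interval -0.0042 to 0.31, adjusted p = 0.141).

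The ratios between channels were also read within each library. Vdac2 over Vdac3 was 0.881 and 0.829 in si3m, against 0.699 and 0.637 in siNT, without overlap. Vdac1 over Vdac3 was 0.277 and 0.30 in si3m, against 0.257 and 0.180 in siNT, also without overlap. Vdac1 over Vdac2 was 0.315 and 0.362 in si3m, within 0.368 and 0.283 in siNT. These ratios, too, have 2 values a group and carry no test. Built from the same counts, they restate the fold changes above. Of single tested genes, 63.9% did not overlap between groups either. RefSeq lists 15 pseudogenes of Vdac1, 5 of Vdac2 and 1 each of Vdac3 and Fis1, none with a row of its own in the tables. How reads with several matches were counted is not given in the sources used here, so the counts of these genes are uncertain to that extent. Pseudogenes of the partner genes named further below were not looked up, so the same limit may hold for them. Vdac2 overlaps Comtd1, which had 12 and 4 counts in si3m and 12 and 6 in siNT, few beside the 1232 and 890 counts of Vdac2 in si3m and 424 and 368 in siNT. Vdac3 overlaps the locus Vdac3l1, which has no row.

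Ppif, which encodes cyclophilin D, had 24.7 and 21.3 CPM in si3m libraries, against 39.8 and 36.1 CPM in siNT libraries. Each si3m library lay below each siNT library. Ppif fell by 0.72 on the log2 scale (SE 0.18, 95% interval -1.11 to -0.32, adjusted p = 0.00853), and 9.04% of all tested genes had a lower value. The fall was 0.61 without si3m replicate 2, where it did not pass (adjusted p = 0.0892), and it passed under the other 12 settings.

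**Figure D3:**
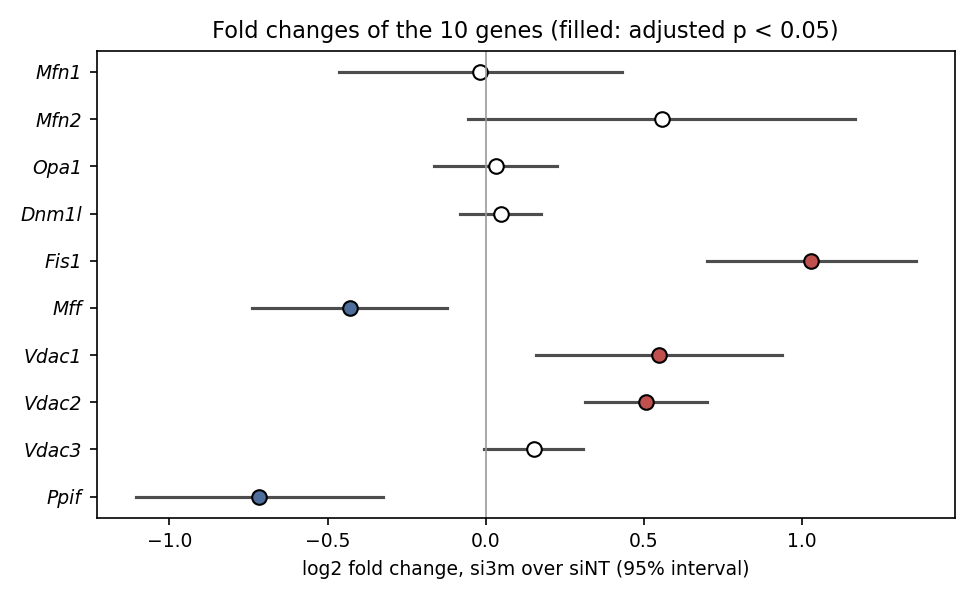
Log2 fold change of each gene, si3m over siNT (x axis), with its 95% interval, filled where the adjusted p is under 0.05. Fis1 lies at 1.03, Vdac1 and Vdac2 at 0.55 and 0.51, Mff at -0.43 and Ppif at -0.72, and the intervals of Vdac3, Mfn2, Dnm1l, Opa1 and Mfn1 include 0.

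**Figure D4:**
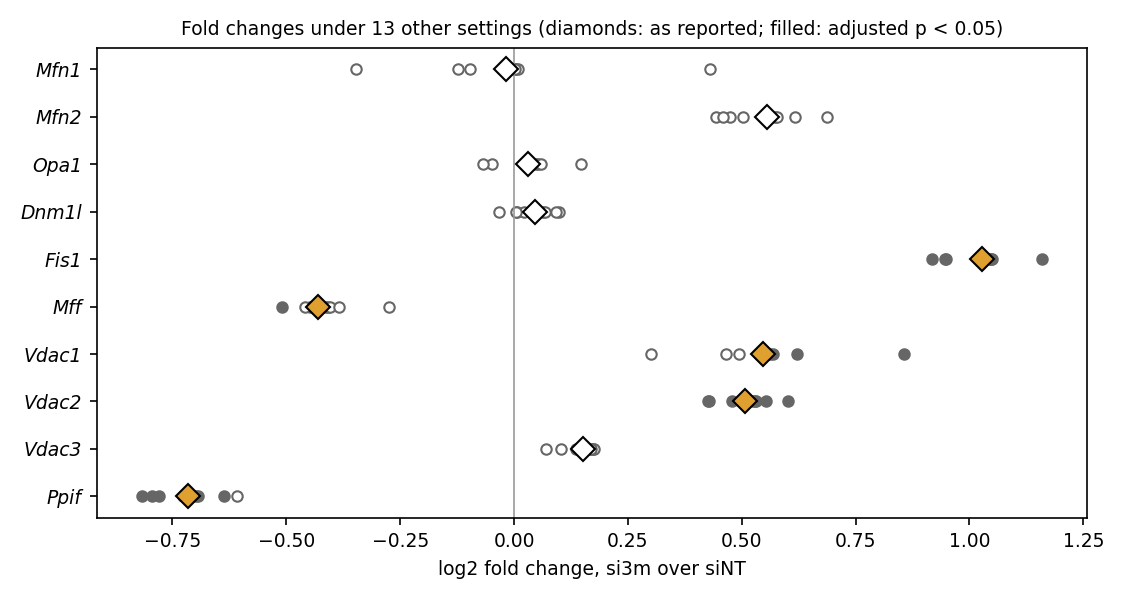
Log2 fold change of each gene (x axis) as reported (diamonds) and under 13 other settings (circles), filled where the adjusted p is under 0.05. All symbols of Fis1 and Vdac2 are filled, 1 circle of Ppif is open, and Vdac1 and Mff have 4 and 6 open circles.

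Partners of these genes were read from 5 lists of textbook membership. Of 30 further genes of fusion, fission and mitochondrial transport, 29 matched a row and 24 were tested, of which 4 rose, 4 fell and 16 did not pass, with a median log2 fold change of 0.19. The 8 called make 33.3%, beside 27.8% of all tested genes. Akap1, a scaffold that anchors protein kinase A to the outer membrane, had 56.8 and 57.2 CPM in si3m, against 107.0 and 100.1 CPM in siNT, and fell by 0.86 (log2, SE 0.11, adjusted p = 2.40e-05). Mul1, an E3 ligase of the outer membrane, had 11.3 and 9.28 CPM in si3m, against 23.4 and 27.4 CPM in siNT, a log2 fold change of -1.29 (SE 0.24). Parl, the rhomboid protease of the inner membrane, had 70.4 and 78.3 CPM in si3m, against 32.9 and 44.2 CPM in siNT (log2 0.95, SE 0.15), and the fission regulator Mtfr1 97.3 and 115.7 in si3m, against 74.7 and 71.1 in siNT (log2 0.54, SE 0.11). Named after their values were seen, Mtfr2 and the motor adaptor Trak1 rose by 1.22 and 0.52, and the inner membrane proteases Afg3l2 and Yme1l1, the second of which cleaves Opa1 protein, had log2 fold changes of -0.65 and -0.44. Without si3m replicate 2 only 2 rose, as in DESeq2.

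Of 11 tested genes of cristae and outer membrane assembly, 2 were higher and 2 lower (36.4% called, beside 27.8% of all tested genes, 14.0% higher and 13.9% lower), with a median log2 of 0.07. Mtx2, of the machinery that inserts barrel proteins such as VDAC into the outer membrane, had 117.0 and 104.3 CPM in si3m, against 66.7 and 60.0 CPM in siNT (log2 0.81, SE 0.11). Minos1 (Micos10) of the cristae junction complex MICOS had 20.6 and 18.6 CPM in si3m, against 4.73 and 10.7 CPM in siNT. Its log2 fold change of 1.35 (SE 0.32) was 2.05 without siNT replicate 2 and 0.88 without siNT replicate 1. Apool, also of MICOS, had 41.5 and 37.1 CPM in si3m, against 67.7 and 75.7 CPM in siNT (log2 -0.86, SE 0.14). Immt, the MICOS core protein, had 107.9 and 106.4 CPM in si3m, against 145.9 and 119.9 CPM in siNT (log2 -0.31, SE 0.097, adjusted p = 0.0262). Its call was lost without siNT replicate 1 (log2 -0.16, adjusted p = 0.327), in DESeq2 (0.0665) and when either si3m library was left out (0.0621 without replicate 1, and 0.0750 without replicate 2), leaving 1 gene lower in each case.

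Of 25 tested partners in permeability and calcium entry, 6 rose and 5 fell, together 44.0% beside 27.8% of all tested genes, with a median log2 of -0.03. Those that rose included subunits of ATP synthase, an enzyme often proposed to form the transition pore. Atp5g3 (Atp5mc3), a gene of its membrane ring, had 2230 and 2144 CPM in si3m, against 891 and 861 CPM in siNT (log2 1.32, SE 0.038, adjusted p = 6.79e-13). Atp5o (Atp5po), the stalk subunit to which cyclophilin D binds, had 139.2 and 139.8 CPM in si3m, against 73.2 and 72.7 CPM in siNT (log2 0.94, SE 0.092). Bax, the pore-forming effector of apoptosis, had 62.5 and 65.0 CPM in si3m, against 15.4 and 12.7 CPM in siNT (log2 2.18, SE 0.18). Hk2, a hexokinase that docks on VDAC, had 104.3 and 94.4 CPM in si3m, against 147.8 and 154.5 CPM in siNT (log2 -0.60, SE 0.087). Named after their values were seen, Atp5g1, Atp5g2 and Sirt3 were the other genes that rose (log2 0.86, 0.71 and 0.84), while the catalytic subunits Atp5a1 and Atp5b (log2 -0.25 and -0.23), the kinase Gsk3b (-0.19) and the phosphate carrier Slc25a3 (-0.17) fell. The adenine nucleotide carriers Slc25a4 and Slc25a5 had log2 values of -0.07 and -0.14 (adjusted p = 0.420 and 0.536), and the calcium uniporter Mcu -0.24 (0.165). Without si3m replicate 1 or si3m replicate 2, 3 rose and 3 fell.

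Of 15 tested other members of the cyclophilin family, prolyl isomerases like Ppif, 3 were higher and 3 lower (median log2 -0.04). The 6 called make 40.0%, beside 27.8% of all tested genes, 14.0% higher and 13.9% lower. Ppib, the cyclophilin of the endoplasmic reticulum, had 410.3 and 381.1 CPM in si3m, against 178.7 and 202.2 CPM in siNT (log2 1.06, SE 0.068). Ranbp2 of the nuclear pore, Nktr and Ppig, large proteins that carry a cyclophilin domain, fell by 0.35, 0.62 and 0.44 on the log2 scale, the last not passing without siNT replicate 2 (adjusted p = 0.0555) or without si3m replicate 1 (0.0573). Ppih and Ppil3, named after their values were seen, also rose (log2 0.64 and 0.68), but only 1 of the 3 rises was left when siNT replicate 2 or either si3m library was omitted. Cytosolic Ppia had 145.5 and 134.9 CPM in si3m, against 148.4 and 152.9 CPM in siNT, and did not pass (log2 -0.10, adjusted p = 0.370).

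Genes often read for mitochondrial import and mass were called in 9 of 18 cases, 6 higher and 3 lower, beside 14.0% higher and 13.9% lower among all tested genes, with a median log2 of 0.27. Tomm7, a small subunit of the outer membrane import pore, had 92.9 and 85.1 CPM in si3m, against 34.8 and 29.98 CPM in siNT (log2 1.46, SE 0.14). Tomm22, the central receptor of the same pore, had 280.3 and 273.8 CPM in si3m, against 422.6 and 420.2 CPM in siNT (log2 -0.60, SE 0.055). Cs (citrate synthase) and Cox4i1 (of cytochrome c oxidase) rose by 0.55 and 0.44 on the log2 scale. Named after their values were seen, Tomm5, Tomm6 and Tomm20 rose and Tomm70 and Timm17a fell, and only 1 gene was lower without si3m replicate 1. Values of 4 libraries placed Atp5o and Sirt3 nearest to Fis1 among the 93 tested partners, at root mean square distances of 0.094 and 0.13 between centred log2 CPM, a description that carries no test. Sirt3 lost its call without either si3m library (adjusted p = 0.0858 without si3m replicate 1 and 0.108 without si3m replicate 2) and in DESeq2 (0.0897).

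**Figure D5:**
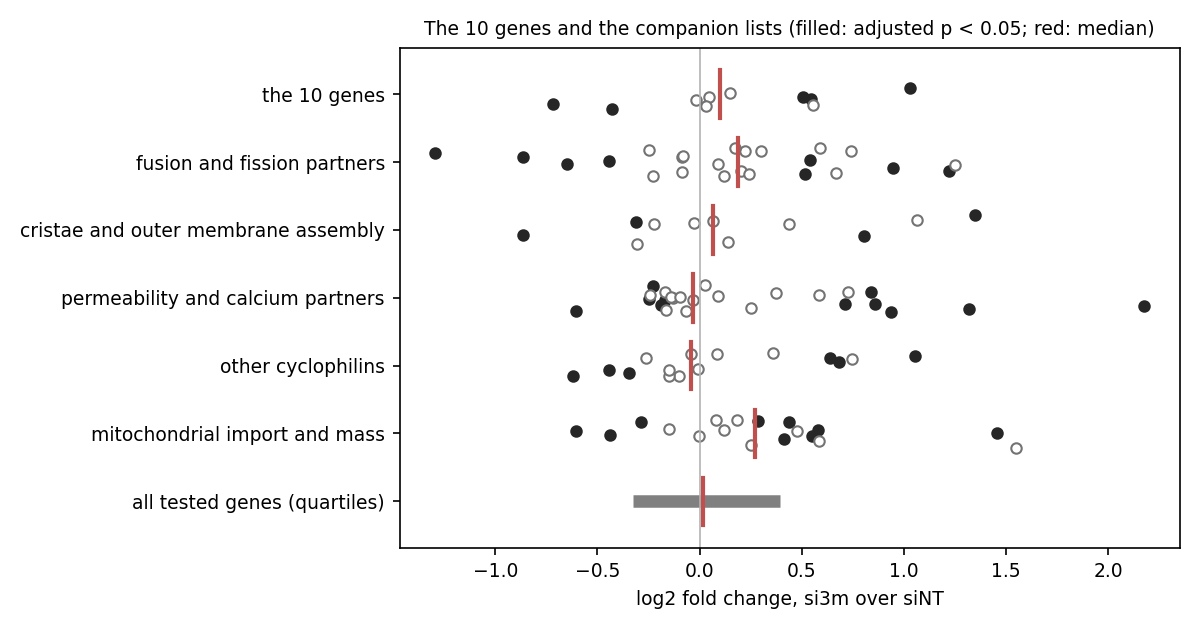
Log2 fold change (x axis) of each tested gene in the set of 10 and in 5 lists of partners, filled where the adjusted p is under 0.05, with medians in red and the quartiles of all tested genes (-0.33 and 0.39) as a bar. Every list holds filled points on both sides of 0, and the medians run from -0.04 to 0.27.

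In the GRCr8 annotation Ppib overlaps Snx22, Yme1l1 overlaps Mastl, Afg3l2 overlaps Prelid3a, Ppil3 overlaps Nif3l1, Gsk3b overlaps Nr1i2 and Tomm20 overlaps Rbm34. Each of these neighbours has its own row, and without a stated strand setting such counts are uncertain. Of the 10 genes only Vdac2 and Vdac3 overlap another annotated gene.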

How the data were processed

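Per the labels' protocols, monosome and polysome fractions were collected and their RNA was made into small RNA libraries. The deposited files hold raw counts per gene symbol, without normalization. Build rn6 and the tools HISAT2 2.2.1, Trimmomatic 0.40, featureCounts, DESeq2 and limma appear in the submitters' processing notes, with no role. The annotation, the strand setting and the handling of multiply matching reads were not stated. Between 94.9% and 97.3% of counts above 0 were even, so a fragment may often have been counted as 2 reads. A count of 0 allows 3 fragments (6 counts), or 0.691 to 1.56 CPM, counting error only.

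Genes were tested with edgeR 4.0.16, run in R 4.3.3 (rows kept by filterByExpr at a minimum count of 10, TMM, glmQLFit, glmQLFTest, two-sided, Benjamini-Hochberg over 12672 genes, threshold 0.05, no block). CPM values carry TMM scaling, except the marker sums, which use library totals. Each SE is the absolute log2 fold change divided by the square root of the F statistic of the test. Intervals of fold changes are built from that SE and are not adjusted for multiple genes. SE and interval thus restate the test and are not separate estimates. Replicates differed by 1.48 (si3m) and 1.40 (siNT) times the median chi-square of counting noise and were kept as 2 samples each. No label gives separate cultures, and p-values therefore reflect only the spread between these libraries, possibly a technical one. The fit shares that spread among genes, so a p-value or interval does not rest on the gene's own replicates alone.

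The 10 genes and the lists were chosen with earlier results of these data known. The rule for names took all 10 genes, Eif3m, up to 4 called genes with the smallest p from each list of partners, and the 2 partners nearest to the gene with the smallest p. In all, 27 symbols had been turned into dates by a spreadsheet, and Marchf5 and Micos13 matched no row. The 13 alternatives were DESeq2 1.42.0, upper quartile and total count scaling, no filter, a stricter filter (50 counts in 2 samples), omitting each library in turn, the replicate block, robust quasi-likelihood, thinned counts and fragments.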

Additional observations from a re-analysis of the deposited data

How the results depend on the processing

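Each result was recomputed under 13 other settings. Of 143 values for Eif3m and the 10 genes, 123 kept direction and side of the threshold; of 273 for named partners, 264 did. Directions of Fis1, Vdac2, Vdac1, Vdac3, Mfn2, Ppif and Mff held under all 13. For the values that moved the cause was not tested. Eif3m stayed at log2 -1.59 with robust quasi-likelihood (adjusted p = 0.0522). In DESeq2 Vdac1 was 0.54 (0.0821) and Mff -0.44 (0.0919), and with total count scaling Vdac1 was 0.47 (0.0707), Dnm1l -0.033 and Opa1 -0.049. Mff was -0.41 (0.0582) unfiltered and -0.27 (0.213) with thinned libraries. Mfn1, at -0.02, became 0.00020 with upper quartile scaling, 0.0053 with no filter and 0.0091 with the replicate block. Leaving out 1 library, where the lone sample of a group is assumed to vary like the others, gave -0.82 to -0.61 for Ppif, 0.30 to 0.86 for Vdac1, -0.46 to -0.38 for Mff, -0.067 to 0.15 for Opa1 and -0.35 to 0.43 for Mfn1. Genes of the 10 called lower were 0 to 2 without 1 library, 1 in DESeq2, 1 with thinned libraries and 1 unfiltered. Over the same omissions, called genes were 2 to 6 higher for fusion and fission partners (2 in DESeq2), 1 to 2 lower for cristae and assembly (1 in DESeq2), 3 to 7 higher (3 in DESeq2) and 3 to 5 lower for permeability partners, 1 to 4 higher for cyclophilins (1 in DESeq2 and 1 with total count scaling) and 1 to 2 lower for import and mass (1 in DESeq2). Replicate numbers do not pair the samples by any label, and deviations of same-numbered libraries had a correlation of -0.023; with the replicate block 3694 genes were called, beside 3528, and no call among the 10 changed. Mfn2 had the fewest counts of the 10, and the interval of its log2 fold change, -0.055 to 1.17, was the widest.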
